A study of Mus musculus with 19 samples.

Results

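The oocyte gene module is a list of 35 genes that the oocyte transcribes, or transcribes far more than the somatic cells of the follicle, and it was read here in RNA of whole mouse ovaries. Of the 35 genes, 32 had a probe set annotated to that gene alone, and each of these was represented by its probe set with the highest mean signal, out of 18193 genes with such a probe set on the array. Npm2 and Nlrp2 had none, and the 2 probe sets that list Oog1 list other genes with it. Ddx4 and Gpr3 lay under the filter on low signals (a mean signal of about 69.4), so 30 members were among the 12379 genes tested.

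The ovaries came from mice aged 2 months, and the labels give 4 genotypes: 8 control arrays from mice heterozygous for both Dhh and Ihh (Ihh_Dhh_dhet), 4 arrays of Dhh knockouts (Dhh_KO), 4 of Ihh knockouts (Ihh_KO) and 3 of mice lacking both genes (Ihh_Dhh_dKO, here DKO). The controls were thus not wild type. Per the labels the deletion is specific to the ovary; the strain, the driver of the deletion and any pooling of animals are not given in the labels used here. Nothing in the labels says that arrays of a group came from separate animals, so p-values measure only the spread between these arrays, which may be technical. Values are MAS5 signals, the brightness of a probe set on an Affymetrix array after scaling to a common trimmed mean, and log2 changes are on the scale of log2(signal + 7.02). Hybridization controls on the array split the samples into a first set, of controls 1 to 4 with the DKO arrays (3' over 5' signal of the BioC spike-in 0.987 to 1.06), and a second set, of controls 5 to 8 with both single knockouts (0.685 to 0.781). Each mutant group is set against the controls of its own set.

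The labels were checked on the deleted genes. Dhh read 944, 606, 1371 and 1311 on controls 1 to 4 and 3.85, 4.28 and 14.2 on DKO 1 to 3, 811, 621, 1077 and 1085 on controls 5 to 8 and 13.2, 5.14, 18.8 and 25.4 on Dhh KO 1 to 4. On Ihh KO 1 to 3 it read 709, 527 and 636, but 2.96 on the array labelled Ihh KO 4, which goes against that label. Ihh read 200.2, 180.4, 139 and 425 on controls 1 to 4 and 51.6, 36.3 and 52.7 on DKO 1 to 3, and 225, 238, 160.0 and 206 on controls 5 to 8, 145, 108, 168 and 139 on Dhh KO 1 to 4 and 12.5, 35.1 and 43.5 on Ihh KO 1 to 3. The array labelled Ihh KO 4 had an Ihh signal of 108, above the other Ihh KO arrays and close to the lowest Dhh KO array. Hhip, a Hedgehog target, averaged 238 ± 36.6 (SD, n = 4) on controls 5 to 8 and 25.5 ± 21.5 (n = 3) on Ihh KO 1 to 3, with 105 for the array labelled Ihh KO 4. The Ihh KO comparisons of the module are therefore given with and without that array. Granulosa genes matched the label of the tissue, since all 16 with a probe set passed the filter. Of 8 genes of testicular germ cells 7 lay under it, on the mean over all 19 arrays. On controls 5 to 8, however, some of these read above it. Prm2 read 103 to 224 there against 29.2 to 51.3 on controls 1 to 4, and Tnp2 80.9 to 320 against 25.9 to 40.2. Ldhc overlapped between the sets, with 59.7 to 117 against 49.8 to 89.5. Gapdh signal at the 3' end over that at the 5' end, which grows as RNA degrades, averaged 1.75 ± 0.0506 (SD, n = 4) on controls 1 to 4, 1.72 ± 0.0556 (n = 3) in DKO, 1.94 ± 0.0534 (n = 4) on controls 5 to 8, 2.07 ± 0.215 (n = 4) in Ihh KO and 2.52 ± 0.311 (n = 4) in Dhh KO.

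An oocyte grows inside a follicle of granulosa cells, and around the follicle theca cells differentiate. Granulosa cells make Dhh and Ihh, the theca and stroma respond to them, and the oocyte signals back to granulosa cells through GDF9 and BMP15. The growing oocyte also stores proteins and messenger RNAs for fertilization and for the first divisions of the embryo. Transcription factors such as FIGLA, SOHLH1, LHX8 and NOBOX act early in this programme, and FIGLA is known to act on the zona pellucida genes through E-boxes, the sequence CANNTG that basic helix-loop-helix proteins bind.

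The promoters of 5 members are shown to set genes on both sides of the main pattern described below beside each other: Zp3, Bmp15 and Oosp1 are among the members that varied from array to array with the rest of the module, and Figla and Sohlh1 followed it least. The sequences are from RefSeq, build GRCm38.p6, 250 bases up to the gene's start, written 5' to 3' on the strand of the gene. Capitals mark the motifs searched on both strands: the E-box CANNTG, which reads the same on both strands, and the homeobox core TAATTG or TAATTA, the kind of site that NOBOX binds.

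Zp3 (chr5:135979855-135980104, plus strand): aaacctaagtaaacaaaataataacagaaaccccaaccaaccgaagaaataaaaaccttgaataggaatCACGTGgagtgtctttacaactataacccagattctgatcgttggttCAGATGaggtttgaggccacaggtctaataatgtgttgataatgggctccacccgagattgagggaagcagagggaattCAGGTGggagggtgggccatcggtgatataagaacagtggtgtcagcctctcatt

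Bmp15 (chrX:6320725-6320974, minus strand): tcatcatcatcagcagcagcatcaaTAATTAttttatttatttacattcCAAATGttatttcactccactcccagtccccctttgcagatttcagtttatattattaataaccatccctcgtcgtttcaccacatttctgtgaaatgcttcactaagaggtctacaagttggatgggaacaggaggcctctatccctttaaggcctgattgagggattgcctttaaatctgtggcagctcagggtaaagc

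Oosp1 (chr19:11691052-11691301, minus strand): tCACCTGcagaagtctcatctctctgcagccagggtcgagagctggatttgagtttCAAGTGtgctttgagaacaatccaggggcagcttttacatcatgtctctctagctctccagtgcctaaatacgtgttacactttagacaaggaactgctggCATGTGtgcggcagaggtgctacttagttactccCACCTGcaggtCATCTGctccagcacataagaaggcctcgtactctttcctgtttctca

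Figla (chr6:86016941-86017190, plus strand): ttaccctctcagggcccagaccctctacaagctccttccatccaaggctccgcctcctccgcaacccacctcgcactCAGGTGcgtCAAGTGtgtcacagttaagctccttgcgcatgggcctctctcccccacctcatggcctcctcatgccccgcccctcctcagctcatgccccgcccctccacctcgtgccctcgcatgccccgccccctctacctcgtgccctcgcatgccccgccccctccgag

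Sohlh1 (chr2:25847249-25847498, minus strand): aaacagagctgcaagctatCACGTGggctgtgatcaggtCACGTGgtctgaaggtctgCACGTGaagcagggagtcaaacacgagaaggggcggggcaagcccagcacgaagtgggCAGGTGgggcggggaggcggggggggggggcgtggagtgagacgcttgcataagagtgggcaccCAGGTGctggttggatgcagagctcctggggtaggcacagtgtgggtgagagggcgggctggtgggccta

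There were 3 E-boxes in the Zp3 sequence, 5 in Oosp1, 1 in Bmp15, 2 in Figla and 5 in Sohlh1, and 1 homeobox core, in Bmp15. The set of RefSeq promoter sequences used here held 32 promoters for 27 of the 35 members, and none for Zp1, Zp2 or Gdf9. An E-box was present in 25 of these 32 (78.1%), against 66.2% of all 32851 promoters of the same length, and a homeobox core in 4 (12.5%), against 11.3%. Both Figla and Sohlh1, as well as the 3 genes that varied together, held E-boxes.

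Most of the module varied together from one array to the next. On every array the level of the module is given as the median, over the 30 tested members, of the log2 value minus the mean of the controls of the same set. It was 0.07, -0.48, -0.06 and 0.47 on controls 1 to 4, and 0.11, -0.51, -0.12 and 0.50 on controls 5 to 8. Control 2 and control 6 were low, with 1 of 30 members above the control mean on control 2 and 1 of 30 on control 6. Control 4 and control 8 were high, with 28 and 29 of 30. The order and the size of these levels repeated from set to set. Deviations over all genes also paired controls 1 and 5, 2 and 6, 3 and 7, and 4 and 8 (r across genes of 0.538, 0.752, 0.695 and 0.771, and at most 0.162 for other pairs; genes are not independent replicates). The labels tie no such pairs, and whether a pair shares an RNA sample was not tested; if so, there are 4 control samples and not 8.

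**Figure D1:**
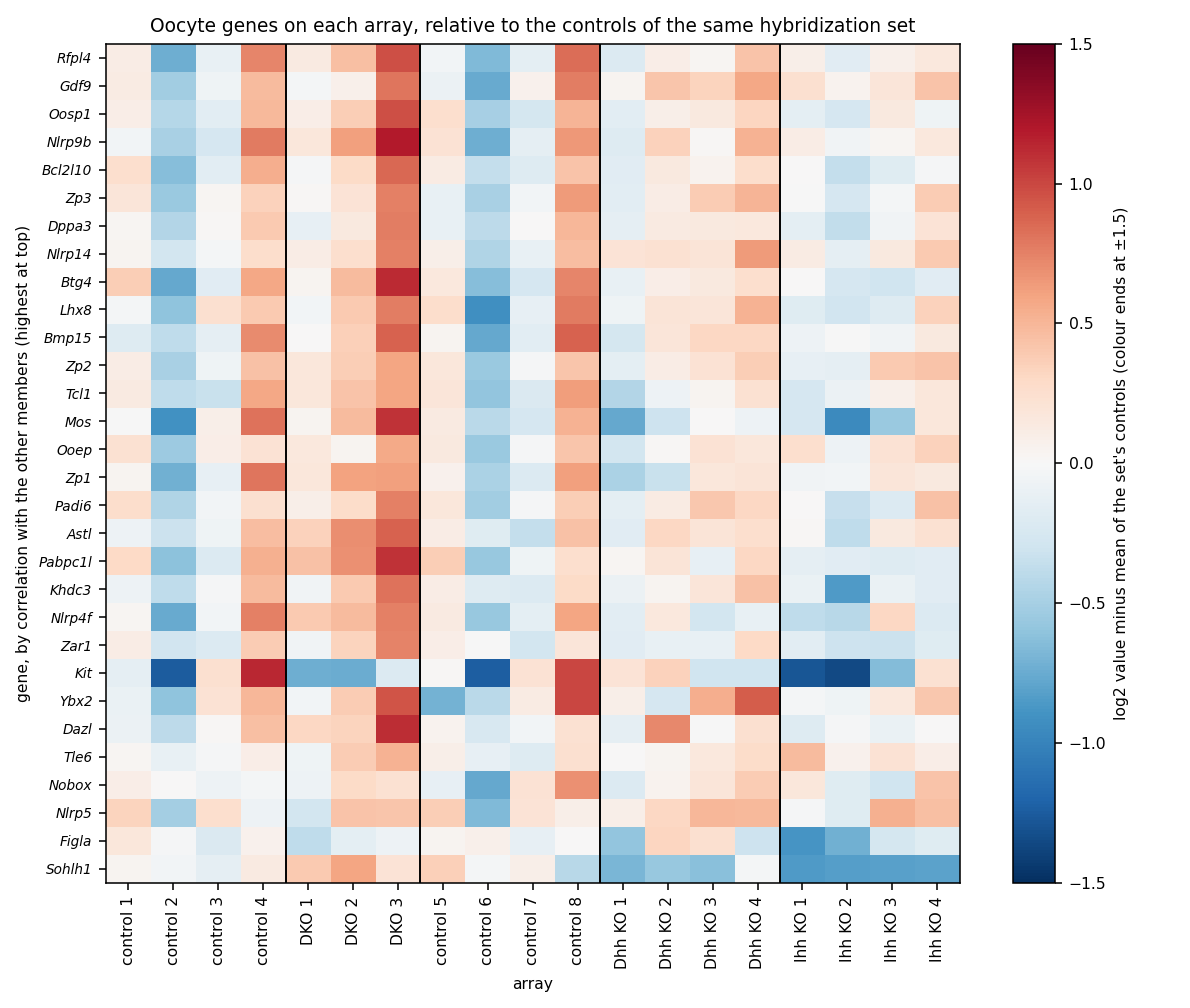
Heat map of the 30 tested oocyte genes (rows, ordered by correlation with the median of the other members) on the 19 arrays (columns), as log2 value minus the mean of the controls of the same hybridization set; red is higher, blue lower, and black lines separate the groups. Controls 2 and 6 are blue and controls 4, 8 and DKO 3 red in most rows, while Figla and Sohlh1 at the bottom follow another pattern.

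Members were compared with one another by the correlation of each gene with the median of the other members over the 19 arrays, after each group's mean was taken off. The correlation was above 0.8 for 21 of the 30 members, and its median was 0.903. The points are arrays that share their scaling, and the controls fall into the 4 pairs above, so these values describe the arrays and carry no test. It was highest for Rfpl4, an oocyte RING finger protein (0.973), the growth factor Gdf9 (0.953), the oocyte-secreted protein Oosp1 (0.952), Nlrp9b (0.948) and Bcl2l10, an oocyte member of the BCL2 family (0.943). It was lower for Tle6 (0.696), Nobox (0.649) and Nlrp5 (0.639), low for Figla (0.273) and near 0 for Sohlh1 (-0.002). Bmp15, with a value of 0.926, Lhx8 (0.928) and the zona genes Zp1 (0.902), Zp2 (0.923) and Zp3 (0.942) were among the 21.

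In DKO no oocyte gene passed the test, although most lay somewhat above the controls of their set. Of the 30 members 28 were higher and 2 lower, with a median log2 change of 0.38, against 54.1% of all genes higher and a median of 0.02. None was called at a limma adjusted p under 0.05, where 3.02% of all genes tested were called (374), and 4 of the 30 had an unadjusted p under 0.05 (1993 of 12379 over all genes). The module level was 0.05, 0.37 and 0.76 on DKO 1 to 3, so DKO 3 lay above every control, DKO 2 between controls 1 and 4, and DKO 1 near the control mean. Without DKO 3 the median change was 0.18, without control 2 it was 0.24 and without DKO 1 it was 0.56. In RNA of whole ovaries, more oocytes, more RNA in each oocyte and less RNA from other cells cannot be told apart.

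The zona pellucida genes encode the glycoproteins of the coat around the oocyte, and ZP2 and ZP3 take part in sperm binding. Zp3 had a signal of 2861, 1712, 2563 and 3212 on controls 1 to 4 and 2556, 2916 and 4264 on DKO 1 to 3 (log2 change 0.33, SE 0.25, adjusted p = 0.57 by limma). Zp2 read 1844, 1221, 1629 and 2315 on those controls and 1924, 2202 and 2578 in DKO (log2 change 0.38, SE 0.23, adjusted p = 0.45). Zp1, which cross-links the filaments of the coat, read 635, 374, 566 and 1089.6 and then 699.9, 943 and 954 (log2 change 0.47, SE 0.29, adjusted p = 0.46). The groups overlap for all 3 genes, and in each of them control 2 is the lowest of the 7 arrays of the set. Their 95% intervals of the log2 change were -0.20 to 0.86 for Zp3, -0.10 to 0.85 for Zp2 and -0.14 to 1.07 for Zp1, so a rise of 1.5-fold lay within each of them.

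The growth factors by which the oocyte signals to granulosa cells showed the same pattern. Gdf9 read 1584, 1007, 1387 and 2022 on controls 1 to 4 and 1425, 1537 and 2533 in DKO (log2 change 0.28, SE 0.28, adjusted p = 0.69 by limma). Bmp15 read 845, 741, 886 and 1595 and then 974, 1249 and 1791 (log2 change 0.42, SE 0.31, adjusted p = 0.55). For both, DKO 1 and DKO 2 lay within the range of the controls, and DKO 3 was the highest array of the set. Both weaker probe sets of Bmp15 also read lowest on control 2 among these arrays. The weakest read highest on DKO 3 (1074, with 865 on control 4), but the other had 1517 on DKO 3 and 1806 on control 4.

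The highest log2 changes in DKO were in genes of RNA control, a cortical granule protease and a NLRP gene. Astl, which encodes ovastacin, the protease released from cortical granules to harden the zona after fertilization, read 329.9, 276, 332 and 479 on controls 1 to 4 and 443, 567 and 646 in DKO. Its mean was 354 ± 87.2 (SD, n = 4) against 552 ± 102 (SD, n = 3) (log2 change 0.64, SE 0.22, adjusted p = 0.13 by limma, 95% interval 0.18 to 1.10). DKO 2 and DKO 3 were above every control and DKO 1 was below control 4 alone. Without control 4 Astl passed the test (log2 change 0.79, limma adjusted p = 0.047); over all 22 alternatives its adjusted p lay between 0.023 and 0.39. Pabpc1l, an oocyte poly(A)-binding protein, averaged 127 ± 45.2 (SD, n = 4) and 209 ± 49.3 (SD, n = 3) (log2 change 0.73, SE 0.26, adjusted p = 0.14), reading 149.5, 76.6, 103 and 177 and then 166, 198 and 263, with DKO 1 within the controls. Dazl, a germ cell RNA-binding protein, read 155, 124, 166 and 228 and then 205, 209 and 360.5 (log2 change 0.58, SE 0.23, adjusted p = 0.21), and its weaker probe set read 102 to 190.0 on controls 1 to 4 and 126 to 262 in DKO. Nlrp9b read 292, 212, 250.2 and 519 and then 338, 463 and 695 (log2 change 0.66, SE 0.31, adjusted p = 0.31). These were the 4 members with an unadjusted p under 0.05, and in each of them all 3 DKO arrays lay above the control mean.

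The other RNA regulators lay in the same direction. Btg4, which brings maternal messenger RNA to the deadenylase, read 978, 441, 672 and 1134 on controls 1 to 4 and 783, 1058 and 1660.5 in DKO (log2 change 0.55, SE 0.31, adjusted p = 0.41 by limma). Ybx2, which stores messenger RNA in germ cells, read 157, 108, 197 and 241 and then 164, 222 and 331 (log2 change 0.43, SE 0.37, adjusted p = 0.63). Control 2 was the lowest and DKO 3 the highest array of the set for both genes. Ddx4, the germ cell helicase also called VASA, lay under the filter and read 36.1 to 101 on these controls and 58.6 to 78.1 in DKO.

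The subcortical maternal complex, which the embryo needs for its first divisions, lay nearer to its controls. Its genes in the list are Nlrp5, Ooep, Tle6 and Khdc3, to which Padi6, an enzyme of the oocyte's cytoplasmic lattices, was added. All 5 were higher in DKO and none passed, with log2 changes of 0.19 for Nlrp5, 0.26 for Ooep, 0.28 for Tle6, 0.37 for Padi6 and 0.39 for Khdc3. Tle6 averaged 1011 ± 61.9 (SD, n = 4) on the controls and 1243 ± 252 (SD, n = 3) in DKO (adjusted p = 0.36 by limma). Ooep averaged 3595 ± 805 and 4255 ± 840.3 in the same groups.

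Further maternal genes gave log2 changes between 0.26 and 0.54 in DKO. They were Dppa3, a chromatin protein that guards maternal DNA methylation (0.26), Zar1, an RNA-binding maternal factor (0.34), Nlrp14 (0.37), Bcl2l10 (0.38), Tcl1, a coactivator of the kinase AKT (0.40), Oosp1 (0.48), Rfpl4 (0.52), Mos, the kinase that holds the egg in metaphase (0.53), and Nlrp4f (0.54). Their limma adjusted p lay between 0.34 for Oosp1 and 0.62 for Dppa3. Gpr3, the receptor that keeps the oocyte in meiotic arrest, lay under the filter and averaged 56.3 ± 22.8 (SD, n = 4) on the controls and 86.3 ± 12.9 (SD, n = 3) in DKO.

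**Figure D2:**
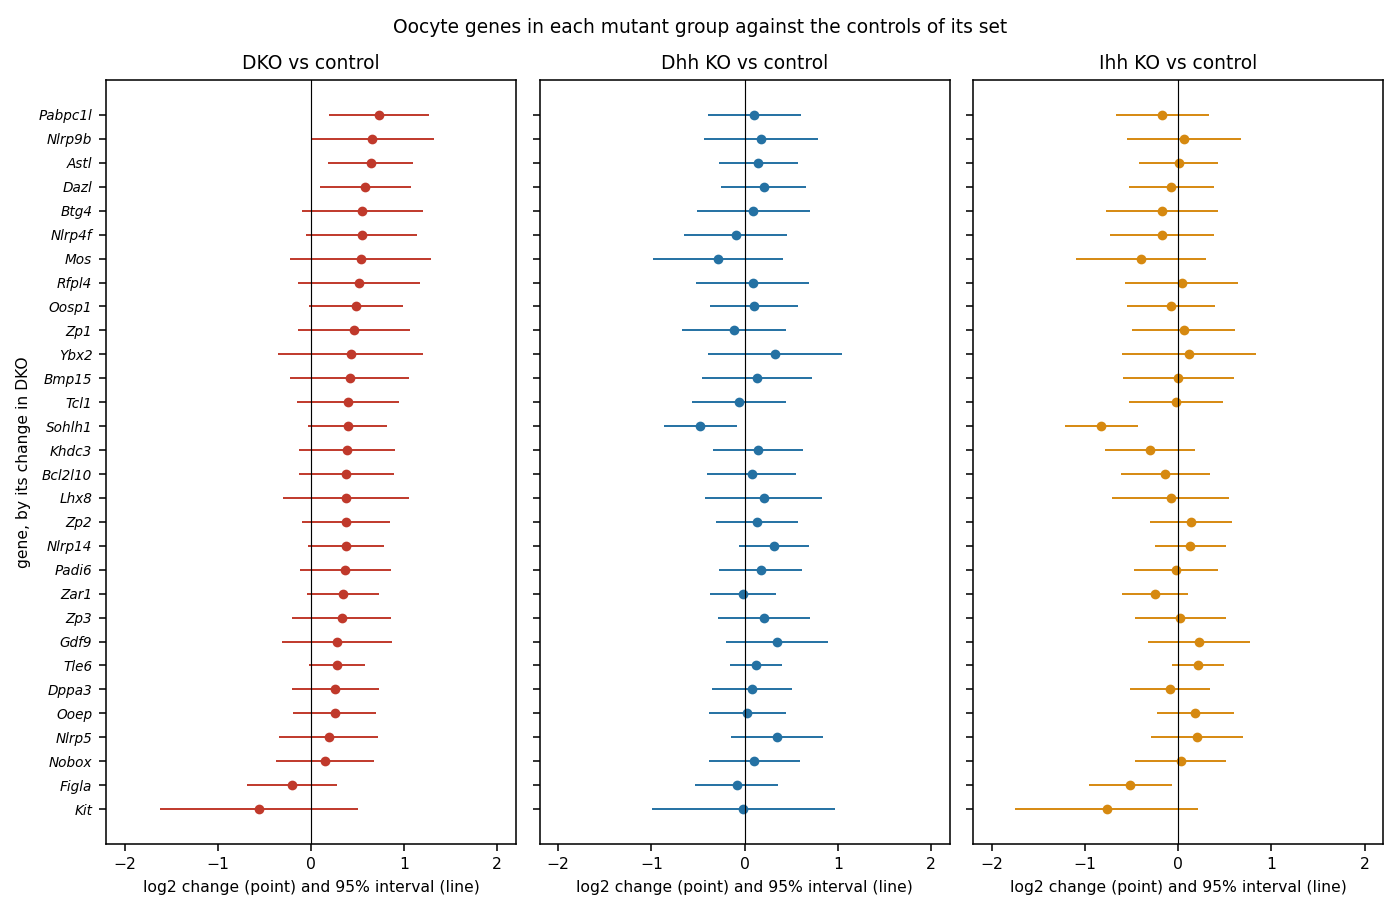
Log2 change (points) with its 95% interval (lines) for the 30 tested oocyte genes (rows, in the order of their change in DKO) in DKO, Dhh KO and Ihh KO, each against the controls of its own set. In DKO 28 points lie above 0 and most intervals reach below it; in the single knockouts the points scatter around 0, with Sohlh1 lowest in both.

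Kit stood apart from the rest in DKO. KIT is the receptor for KIT ligand from granulosa cells and is also made by mast cells. It read 299, 134, 389 and 728 on controls 1 to 4 and 194, 193 and 284 in DKO (log2 change -0.56, SE 0.50, adjusted p = 0.64 by limma, 95% interval -1.62 to 0.50). It followed the module across the controls, lowest on control 2 and highest on control 4, but the DKO arrays were all below the control mean while most other members were above it. Its weaker probe set read 72.2 to 344 on these controls and 85.8 to 103 in DKO.

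The early transcription factors did not share a direction. Nobox, a homeobox factor of early follicles, read 631, 588, 558 and 578 on controls 1 to 4 and 558, 721 and 689.6 in DKO (log2 change 0.15, SE 0.25, adjusted p = 0.84 by limma). Lhx8, a LIM homeobox factor, read 180.0, 119, 217 and 243 and then 179, 244 and 319 (log2 change 0.38, SE 0.32, adjusted p = 0.62). Figla read 145, 127, 110.1 and 135 and then 97.3, 116 and 122 (log2 change -0.20, SE 0.23, adjusted p = 0.74). Sohlh1 read 78.1, 72.8, 68.3 and 83.4 and then 101, 117 and 87.7 (log2 change 0.39, SE 0.20, adjusted p = 0.36). Sohlh1 was the only one of the 30 members with every DKO array above every control of the set, a separation found in 7.08% of all genes tested. Figla was lower on all 3 DKO arrays than the control mean, and its groups overlap.

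In Dhh KO the oocyte genes stayed close to their controls. Of the 30 members 22 were higher and 8 lower (43.7% of all genes were higher), with a median log2 change of 0.10 against -0.03 over all genes. No gene at all was called by limma (0% of those tested; 1252 at an unadjusted p under 0.05), and 1 member, Sohlh1, had an unadjusted p under 0.05. The module level was -0.15, 0.12, 0.16 and 0.31 on Dhh KO 1 to 4, within the range of controls 5 to 8. Those arrays had the highest Gapdh ratios, given above, and the part of RNA quality in these values was not tested. The median change was 0.28 without control 8 and -0.06 without control 6, and -0.02 with all 8 controls as 1 group, so its direction turned with the controls used.

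Named members show how small the shifts in Dhh KO were beside the spread of the controls. Zp3 read 1468, 1129.7, 1540.3 and 2461 on controls 5 to 8 and 1423, 1709, 2066 and 2249 on Dhh KO 1 to 4 (log2 change 0.21, SE 0.23, adjusted p = 0.8 by limma). Gdf9, with the highest log2 change among the members, read 851, 531, 946 and 1545 and then 929.5, 1208, 1142 and 1355 (log2 change 0.35, SE 0.26, adjusted p = 0.69). The Dhh KO arrays lay inside the range of the controls for both genes. Nlrp5 (log2 change 0.34), Ybx2 (0.32) and Nlrp14 (0.31) came next, and Mos (-0.29) and Sohlh1 (-0.48, adjusted p = 0.41) lay at the other end. The log2 changes of the remaining 24 members lay between -0.11 for Zp1 and 0.21 for Zp3.

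In Ihh KO most oocyte genes also stayed near the controls, and Sohlh1 and Figla were the lowest in proportion to their spread. With all 4 arrays 14 members were higher and 16 lower (46.0% of all genes were higher), with a median log2 change of -0.02, the same as over all genes; the direction depended on the scaling, since centring each array on its median moved the median of all genes to 0.13 and that of the members to 0.13 (21 higher and 9 lower). Without the array labelled Ihh KO 4, 9 were higher and 21 lower, with a median of -0.10. No member was called either way, and 2 with and 3 without that array had an unadjusted p under 0.05, all lower. Over all genes 0.0162% were called with 4 arrays (2 genes) and 0.388% without that array (48). Of all 12379 genes, 1728 had an unadjusted p under 0.05 with 4 arrays and 1980 without that array. The module level was -0.06, -0.22 and -0.04 on Ihh KO 1 to 3, whereas the array labelled Ihh KO 4 had 0.16. Without control 8 the median change was 0.17 and without control 6 it was -0.22.

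Sohlh1, a basic helix-loop-helix factor of early oocytes, read 191, 144, 157 and 108 on controls 5 to 8 while the 4 Ihh KO arrays had 78.3, 79.7, 80.5 and 81.5 (log2 change -0.83, SE 0.19, adjusted p = 0.14 by limma; -0.83 and adjusted p = 0.084 without the array labelled Ihh KO 4). All 4 arrays were below every control of the set, and on Dhh KO 1 to 4 the signal was 88.8, 97.1, 93.1 and 144, above every Ihh KO array and, on 3 of the 4, below every control. Figla read 105, 108, 92.8 and 102 and then 52.0, 58.8, 83.5 and 88.9 (log2 change -0.51, SE 0.21, adjusted p = 0.3; -0.62 and adjusted p = 0.19 without that array), again with all 4 arrays below every control. Such a separation downward was found in 3.99% of all genes tested, and in 2 of the 30 members. Sohlh1 passed the test without control 8, which had the lowest signal of its controls (log2 change -0.96, limma adjusted p = 0.033); over all 21 alternatives its adjusted p lay between 0.033 and 0.77.

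The signal of Sohlh1 also differed between the controls of both sets. Controls 1 to 4 averaged 75.6 ± 6.54 (SD, n = 4), and controls 5 to 8 averaged 150.0 ± 34.0 (SD, n = 4). The 4 arrays labelled Ihh KO, at 80.0 ± 1.35 (SD, n = 4), were therefore below controls 5 to 8 and near controls 1 to 4. Figla went the other way, with 129 ± 14.8 (SD, n = 4) on controls 1 to 4 and 102 ± 6.41 (SD, n = 4) on controls 5 to 8. Both genes lay near the filter, which stood at a mean signal of 69.4. The testicular germ cell genes Prm2 and Tnp2 were, like Sohlh1, higher on controls 5 to 8 than on controls 1 to 4. On the 4 arrays labelled Ihh KO they read 46.3 to 89.2 and 38.5 to 72.3, under every one of controls 5 to 8. Prm1 had 77.3 to 152 there and overlapped those controls (135 to 240). Whether Sohlh1 shares a cause with these genes was not tested.

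Kit was low on 3 of the Ihh KO arrays. It read 360.4, 146, 413 and 721 on controls 5 to 8, 142, 134 and 223 on Ihh KO 1 to 3, but 417 on the fourth array of that label (log2 change -0.77, SE 0.47, adjusted p = 0.47 by limma; -1.10 and adjusted p = 0.27 without that array). Its weaker probe set read 84.4, 84.5 and 97.3 on Ihh KO 1 to 3, with 237 on the fourth array, where controls 5 to 8 had 101 to 433. The groups overlap at control 6 in the stronger probe set. Zp3, by contrast, gave 1571, 1327, 1552 and 2065 in the 4 Ihh KO arrays (log2 change 0.02, adjusted p = 0.98, and -0.10 without the fourth), and Gdf9 read 1067, 934, 1024 and 1215 (0.22, adjusted p = 0.73, and 0.16 without the fourth).

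**Figure D3:**
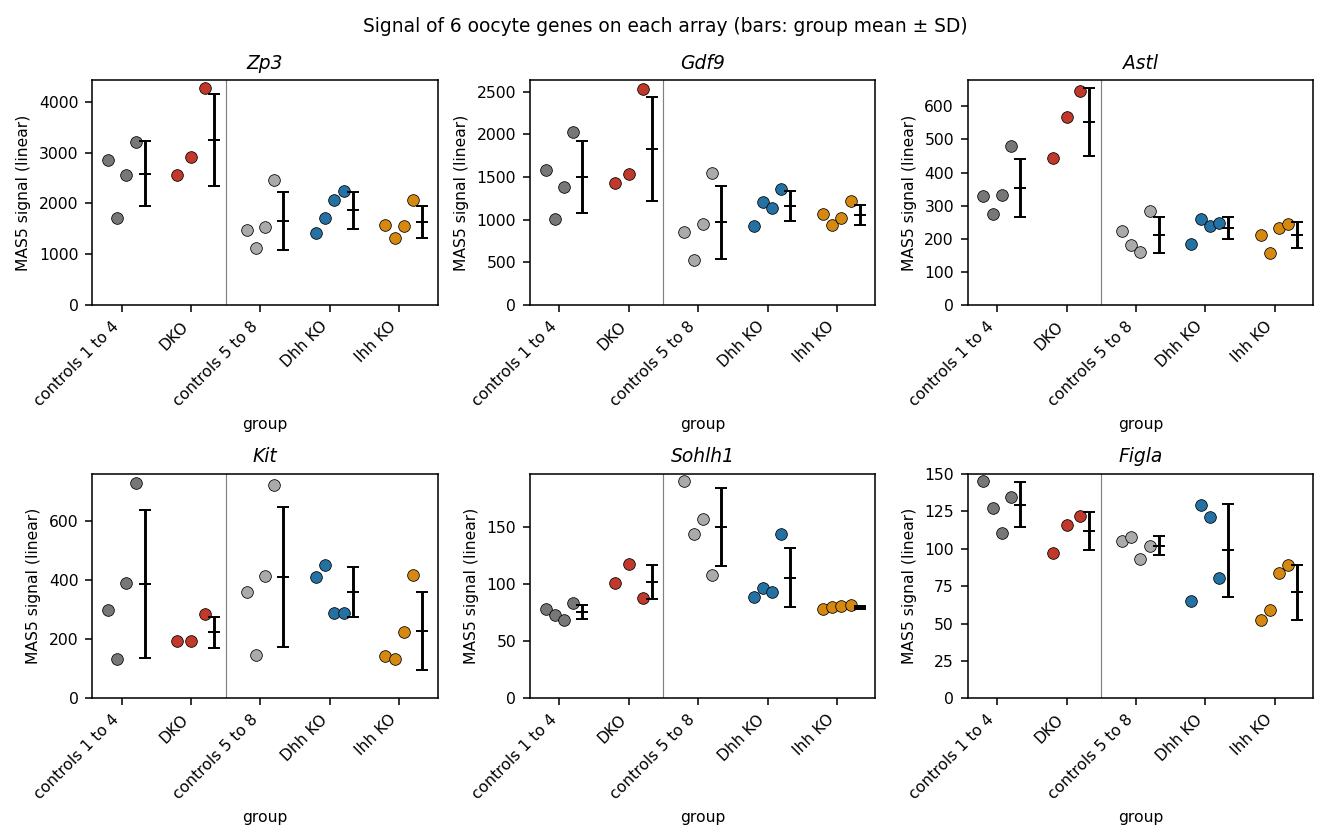
MAS5 signal (linear axis from 0) of Zp3, Gdf9, Astl, Kit, Sohlh1 and Figla on each array by group, with group mean ± SD (n = 4, and n = 3 for DKO); the vertical line separates the hybridization sets. Zp3, Gdf9 and Astl are higher on controls 1 to 4 than on controls 5 to 8 on average, DKO lies under the control mean for Kit, and all 4 arrays labelled Ihh KO lie under controls 5 to 8 for Sohlh1 and Figla.

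The comparisons of mutant groups with one another left no oocyte gene past the threshold in the fit as reported, and Sohlh1 past it with paired controls. Both single knockouts share controls 5 to 8, so they were compared directly. Ihh KO against Dhh KO had 5 members higher and 25 lower (median log2 difference -0.17), while 48.7% of all genes were higher. Limma called 0% of all genes, and 1440 had an unadjusted p under 0.05, none of them a member. Without the array labelled Ihh KO 4 this became 3 higher and 27 lower (median -0.25), while 48.8% of all genes were higher. None was called and 2 had an unadjusted p under 0.05, against 0.21% called and 1905 under 0.05 of all 12379 genes. The change in DKO minus that in Dhh KO had a median of 0.26 over the members, with 26 above 0, against 56.4% of all genes. None was called and 1 had an unadjusted p under 0.05, against 0.606% called and 1999 under 0.05 of all 12379 genes. The change in DKO minus that in Ihh KO had a median of 0.42, with 29 above 0, against 55.8% of all genes. None was called and 4 had an unadjusted p under 0.05, against 0.396% called and 2151 under 0.05 of all 12379 genes. With Ihh KO 1 to 3 alone the median of that difference became 0.53, with 30 above 0, against 56.0% of all genes. None was called and 5 had an unadjusted p under 0.05, against 0.275% called and 2163 under 0.05 of all 12379 genes. The widest was Sohlh1, with 1.22 for its change in DKO minus that in Ihh KO (SE 0.28, adjusted p = 0.056 by limma). Without the array labelled Ihh KO 4 this was 1.23 (limma adjusted p = 0.079). With the pairs of controls above given a shared correlation it passed the test (limma adjusted p = 0.019), and calls over all genes went from 49 to 697. Over all 4 alternatives its adjusted p lay between 0.019 and 0.16. The Sohlh1 signals themselves were 87.7 to 117 in DKO and 78.3 to 81.5 in Ihh KO. Their controls lay further apart, with 68.3 to 83.4 on controls 1 to 4 and 108 to 191 on controls 5 to 8. With all 8 controls as 1 group the log2 change of Sohlh1 in DKO was -0.058.

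A longer list of 51 other oocyte genes was read in the same way. Of 33 that were tested, 29 were higher and 4 lower in DKO (median log2 change 0.46), 21 higher and 12 lower in Dhh KO (0.05), and 14 higher and 19 lower in Ihh KO (-0.04; 11 and 22, with -0.12, without the array labelled Ihh KO 4). None was called by limma in these comparisons, and 7 in DKO, 1 in Dhh KO and 4 in Ihh KO had an unadjusted p under 0.05. Of all 12379 genes, 1993 in DKO, 1252 in Dhh KO and 1728 in Ihh KO had such a p. The share of all genes that were higher was 54.1% in DKO, 43.7% in Dhh KO and 46.0% in Ihh KO. The level of the longer list by array was 0.07, -0.56, -0.07 and 0.53 on controls 1 to 4, 0.18, 0.35 and 0.81 on DKO 1 to 3 and 0.05, -0.45, -0.10 and 0.44 on controls 5 to 8, the same order of arrays as the members gave in these groups.

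Genes of the cells around the oocyte were read on the same arrays. The level of 16 granulosa genes was 0.13, -0.16, -0.13 and 0.14 on controls 1 to 4 and 0.16, 0.11 and 0.43 on DKO 1 to 3, a narrower range than the oocyte genes had. In DKO 13 of them were higher and 2 rose, Slc18a2 (log2 change 0.92, limma adjusted p = 0.015) and Fam13a (0.61, adjusted p = 0.047). Of 12 tested genes of cumulus cells and of the response to oocyte factors, 1 rose: Nppc, the granulosa peptide that holds the oocyte in meiotic arrest (1.35, adjusted p = 0.013).

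Corpus luteum genes ran opposite to the oocyte genes on the controls. The level of the 8 tested genes was 0.07, 0.79, 0.44 and -2.04 on controls 1 to 4 and -0.02, 0.63, 0.44 and -1.69 on controls 5 to 8. Controls 4 and 8, highest for the oocyte genes, were lowest here, and controls 2 and 6, lowest for the oocyte genes, were highest. On controls 4 and 8 none of the 8 genes lay above the control mean, against 7 and 6 on controls 2 and 6. In DKO the level was -0.47, 0.50 and -1.44 on arrays 1 to 3, lowest on DKO 3, where the oocyte genes were highest. The opposite order did not hold throughout DKO, since DKO 2 was highest here but lay between DKO 1 and DKO 3 for the oocyte genes. On Ihh KO 1 to 3 the luteal level was 0.77, 1.18 and 1.19, and Ihh KO 3 was also the highest of these for the oocyte genes. The fourth array of that label had 0.22. In Dhh KO the luteal level ran from -0.12 to 0.79. It was highest on Dhh KO 4, which was also the highest of that group for the oocyte genes (0.31). Signals are scaled to a common mean on each array, and the part of luteal RNA in the level of the oocyte genes was not tested.

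**Figure D4:**
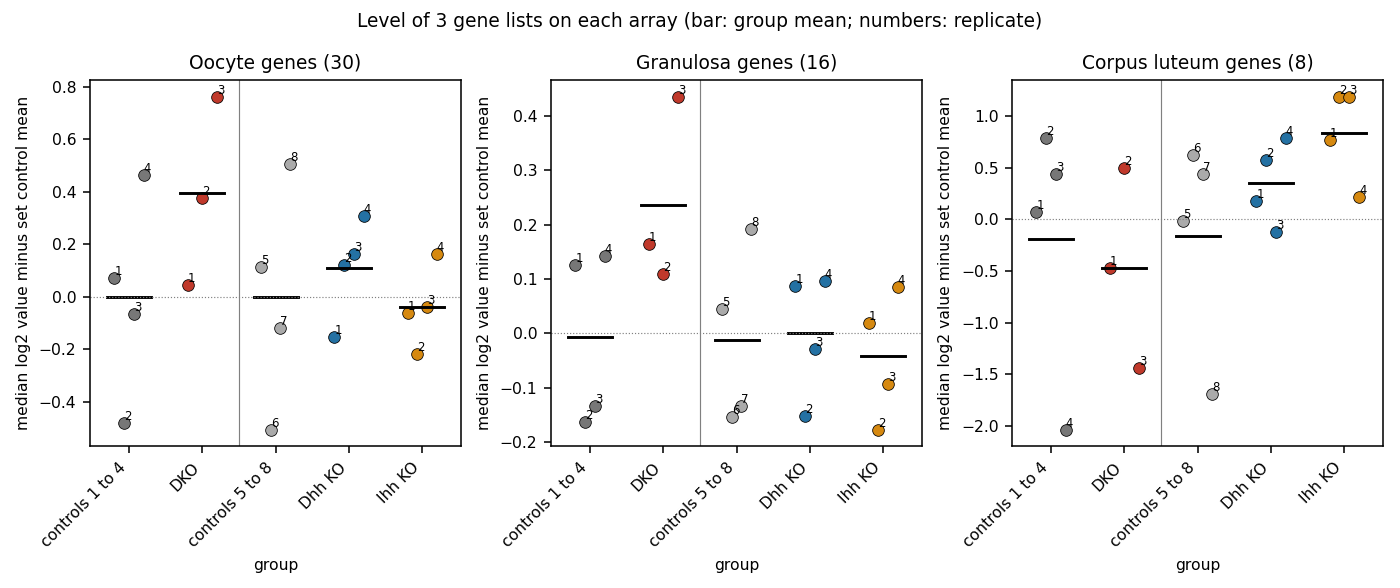
Median log2 value minus the mean of the set's controls for 30 oocyte, 16 granulosa and 8 corpus luteum genes, 1 point per array labelled by its replicate number, with group means as bars; the vertical line separates the hybridization sets, and each panel has its own axis. Controls 4 and 8 are highest for the oocyte genes and lowest for the corpus luteum genes.

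Genes of the oviduct and theca lists also differed in DKO. All 7 tested oviduct genes were higher in DKO and 4 rose, Plet1, Wfdc2, Epcam and Cdh1. Plet1 read 1949, 227 and 3456 on DKO 1 to 3, so DKO 2 lay within controls 1 to 4 (41.9 to 249). Wfdc2, Epcam and Cdh1 were above each of those controls on every DKO array. Ovgp1, which did not pass, read 3730, 53.6 and 4679 on DKO 1 to 3. On DKO 2 it lay within controls 1 to 4 (26.0 to 409), as Plet1 did. The level of the oviduct list was 1.92, 1.16 and 2.51 on DKO 1 to 3 against -0.33 to 0.23 on controls 1 to 4. On DKO 2 this level thus does not hold for each gene of the list. Of 7 tested theca genes 3 fell, Star, Cyp11a1 and Fdx1, and the level of the theca list was -0.65, -0.93 and -1.82 on DKO 1 to 3. DKO 3 was the extreme array of its set for oviduct, theca, granulosa and oocyte genes alike. The part of oviduct, theca and granulosa RNA in the higher oocyte signals of DKO was not tested.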

How the data were processed

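RNA of whole ovaries was measured on 19 one-colour Affymetrix arrays. The deposited values are MAS5 signal intensities on a linear scale, per the submitters' processing notes, with every array scaled to a trimmed mean of 500.0 (2% off either end). The table holds 45101 probe sets, of which 34945 are annotated to 1 gene and 932 to several. Members and lists were chosen with earlier results of these data known.

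Signals were taken as log2(signal + 7.02), 7.02 being the 10th percentile over the table. A probe set stayed in if its mean reached the 40th percentile, and each gene was represented by its probe set with the highest mean. That left 12379 genes. The fit was limma 3.58.1 (R 4.3.3, lmFit and eBayes with an intensity trend) over all 19 arrays, with controls 1 to 4 and 5 to 8 as separate groups. Benjamini-Hochberg adjusted p-values over all genes had a threshold of 0.05. Every member is named, and genes of other lists where they passed, besides some oviduct and testicular germ cell genes. Lists are described by counts and medians. The script was tested on simulated data. The number of arrays limits the precision. Figures were drawn with Python 3.11.15.

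Alternatives were the normalization, pseudocount, filter, probe set rule, arrays in the fit, array weights, matched controls as a correlated block, the replicate number as a block, and leaving out each array. Leaving out the array labelled Ihh KO 4 together with the matched controls was added after the data were seen.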

Additional observations from a re-analysis of the deposited data

Results flagged for a closer look

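Among 120 pairs of a tested oocyte gene and a group of 4 arrays, 5 had 1 array far from the other 3 on the log2 scale. Chance flags about 1 in 20 such groups. Lhx8 had a signal of 190.5 on the array labelled Ihh KO 4, where Ihh KO 1 to 3 read 120.5 to 130.3. Khdc3 read 78.1 on Ihh KO 2, where the other Ihh KO arrays read 129.7 to 136. Zar1 read 937 on Dhh KO 4, where the other Dhh KO arrays read 674 to 704. Dppa3 read 1141 on Dhh KO 1, where the other Dhh KO arrays read 1379.7 to 1404. Nlrp14 read 4051 on Dhh KO 4, where the other Dhh KO arrays read 2965 to 3044.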

How the results depend on the processing

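The median log2 change of the oocyte genes moved by less than 1 SD of the control arrays under each alternative. The SD of the module level was 0.39 on controls 1 to 4 and 0.42 on controls 5 to 8. Each reported median (0.38 in DKO, 0.10 in Dhh KO and -0.02 in Ihh KO) was smaller, so a move within this bound could remove or turn it. Leaving out 1 array gave medians of 0.18 to 0.56 in DKO, -0.06 to 0.28 in Dhh KO and -0.22 to 0.17 in Ihh KO. In the same order, 0 to 1, 0 and 0 to 1 oocyte genes were called, and 128 to 503, 0 to 7 and 0 to 58 over all genes. In DKO, 374 genes were called, against 225 with median centring, 246 with a filter at the 60th percentile, 79 with the arrays of the set alone, 594 with all 8 controls as 1 group (1 oocyte gene, Astl, 1.00, adjusted p = 0.023) and 700 with array weights. In Dhh KO, with 0 as reported, the calls were 1 with a pseudocount at the 25th percentile, 19 with all 8 controls, 7 with array weights, and 1 without the array labelled Ihh KO 4, with or without a correlation of matched controls. In Ihh KO, with 2 as reported, they were 1 with median centring, with mean probe sets and without the intensity trend, 0 without a pseudocount, with the 60th percentile, with the arrays of the set alone and with matched controls, 7 without a filter, 66 with array weights (1 oocyte gene, Sohlh1, -0.87, adjusted p = 0.037), 48 without the array labelled Ihh KO 4 and 61 with matched controls as well. Ihh KO against Dhh KO gave 4 with quantile normalization, 1 with a pseudocount at the 25th percentile and 26 without the array labelled Ihh KO 4. The change in DKO minus that in Dhh KO gave 39 with quantile normalization and 672 with matched controls, against 75; minus that in Ihh KO, it gave 21 and 697 (1 oocyte gene, Sohlh1, adjusted p = 0.019), against 49. With all 8 controls as 1 group the direction turned for Sohlh1 in DKO (-0.058), for Zp3 (-0.12) and Ybx2 (-0.28) in Dhh KO, and for Zp3 (-0.31) and Gdf9 (-0.12) in Ihh KO. Zp3 in Ihh KO also turned with quantile normalization (-0.00099) and without the array labelled Ihh KO 4 (-0.10, also with matched controls), control 5 or control 6 (-0.14 to 0.23 over the arrays left out), and Gdf9 there without control 6 (-0.027 to 0.48). The cause was not tested.

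The replicate number as a block pairs the single knockouts with controls 1 to 4, since their own controls carry other numbers, so it also sets one hybridization set against the other. It called 3689 genes and 8 oocyte genes in Dhh KO and 3345 and 9 in Ihh KO. Under the block, Dhh KO gave 0.43 for Sohlh1, -0.34 for Gdf9, -0.46 for Zp3 and -0.89 for Ybx2, and Ihh KO gave 0.077 for Sohlh1, -0.65 for Zp3 and -0.46 for Gdf9. The median over the oocyte genes was 0.53 in DKO (0 called), -0.13 in Dhh KO and -0.34 in Ihh KO. Same-numbered arrays correlated across genes, in their deviations from group means, at 0.158, 0.274 and 0.0743 for DKO and controls, at 0.289, 0.0976, 0.430 and 0.216 for Dhh KO and controls 1 to 4, and at -0.298 to 0.192 for Ihh KO with those controls or with Dhh KO. In each of these groupings at least 1 pair was under 0.1, and the labels tie no numbers, so the numbers were not taken as pairs.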
